A study of Mus musculus with 6 samples.

Results

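The colony stimulating factors are cytokines that keep myeloid cells alive, make them divide and steer their maturation, and 7 genes of this system were followed in mouse thalamus after a small haemorrhage. The genes are the receptor Csf1r with its ligands Csf1 and Il34, the receptor chains Csf2ra, Csf2rb and Csf2rb2, and the receptor Csf3r. They were taken by gene name from the deposited tables, which list 26554 features, and all 7 were found and had counts enough to be tested. The tissue was VPL/VPM, the ventral posterior nuclei that relay touch and pain through the thalamus, from C57 mice whose genotype label is WT. In the collagenase group 0.01 U of type IV collagenase in 10 nL was injected into the right VPL/VPM; the enzyme digests the wall of small vessels, which then bleed. The saline group received 10 nL of saline at the same place, and tissue of both groups was taken at 14 days. Each group had 3 poly(A) RNA libraries. The labels give no age, and nothing in them tells single animals from pools, so each p-value reflects only how these 6 libraries varied.

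Csf1r is a receptor tyrosine kinase of microglia, the resident macrophages of the brain, and of other macrophages, and microglia need its signal to survive. Csf1 and interleukin-34, the product of Il34, both bind it; in the adult brain Csf1 is made mainly by glia and Il34 mainly by neurons. The receptor for GM-CSF, the product of Csf2, pairs the ligand-binding alpha chain Csf2ra with the beta chain Csf2rb, which the receptors for interleukin-3 and interleukin-5 also use. Mice carry a second beta chain gene, Csf2rb2, whose product serves interleukin-3. Csf3r is the receptor for G-CSF, the product of Csf3, and is best known from neutrophils.

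At 14 days after collagenase the receptor genes Csf1r, Csf3r, Csf2rb and Csf2rb2 were higher, and neither ligand gene passed the test. Of the 7 genes 4 rose, 0 fell and 3 did not pass. Of all 17240 tested features 2.12% were called higher in the same edgeR quasi-likelihood test (Benjamini-Hochberg adjusted p under 0.05) and 0.29% lower, 2.41% in all. Other fits called between 0.46% and 3.49% of features higher. All 7 genes were retested in each, and the same 4 passed with DESeq2 (3.09% of features), without a filter on low counts (1.71%), with limma on FPKM (2.12%), with DESeq2 size factors (2.07%), without robust estimation (2.01%) and with a replicate block (1.46%). Of the fits that left out 1 library, those without saline replicate 2 (1.71%) and without saline replicate 3 (2.86%) called 4 of the 7. Those without collagenase replicate 1 (0.853%) and 3 (1.16%) called 3, and those without saline replicate 1 (0.46%) and collagenase replicate 2 (0.77%) called 2. Fold changes were 1.83 for Csf1r, 3.76 for Csf3r, 6.57 for Csf2rb and 4.54 for Csf2rb2. The median log2 fold change of the 7 genes was 0.88, against -0.02 over all tested features.

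**Figure D1:**
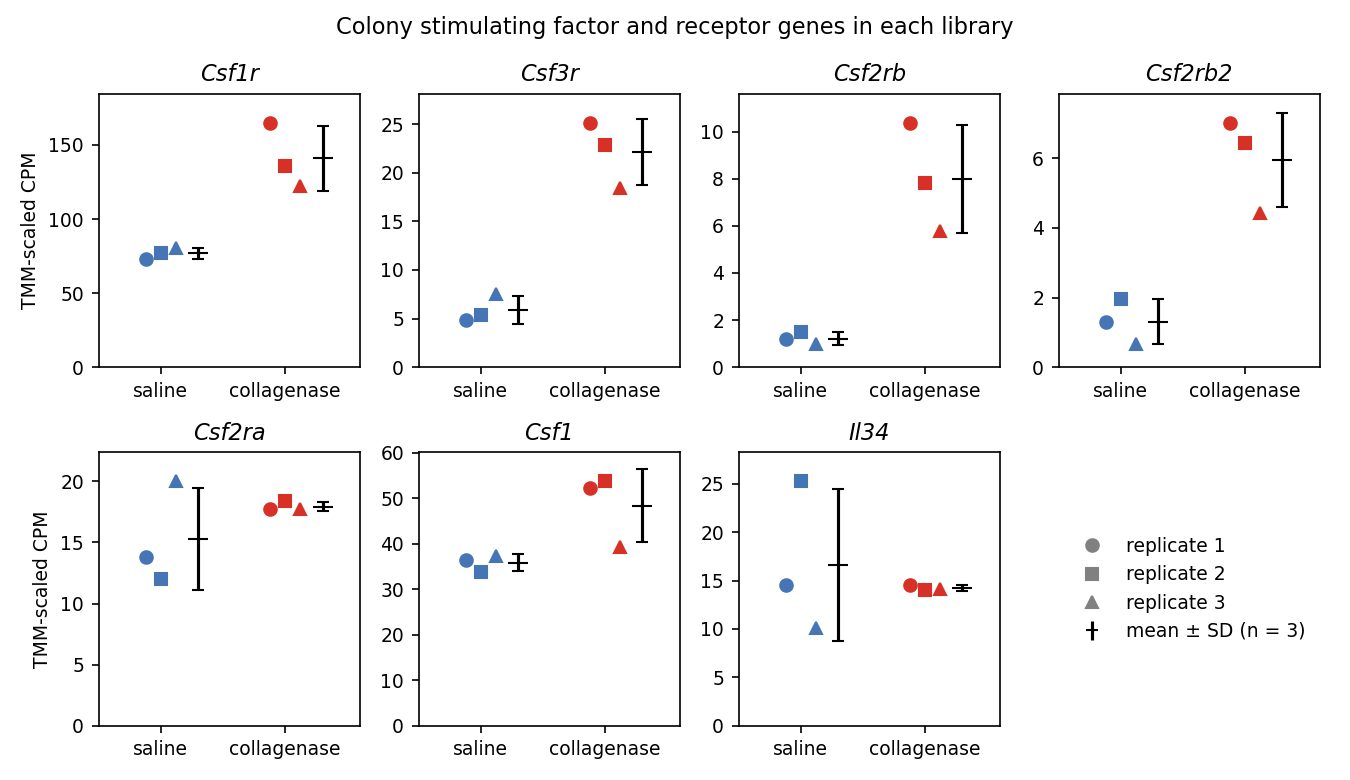
Level of each gene in TMM-scaled CPM (counts scaled to library depth, linear axis from 0) in the 3 saline (blue) and 3 collagenase (red) libraries, with symbols for the replicate number and a bar for mean ± SD. Every collagenase library lies above every saline library for Csf1r, Csf3r, Csf2rb, Csf2rb2 and Csf1, and the groups overlap for Csf2ra and Il34.

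Total counts were between 33603076 and 44815451 per library. Thalamic neurons were present in every library, with Slc17a6, the glutamate transporter of relay neurons, between 399.9 and 632.3 CPM. Libraries differed in tissue from outside the relay nuclei. The summed level of 8 choroid plexus genes, led by Ttr, Kl and Clic6, was 22.2 and 21.4 CPM in saline replicate 3 and collagenase replicate 3, and between 948.3 and 2636 CPM in the other libraries. A fit without replicate 3 of both groups, chosen after the data were seen, is therefore given beside some of the results. It called 5 of the 7 genes, and 3.49% of features higher. Csf1r, Csf3r, Csf2rb and Csf2rb2 kept their calls in it, at log2 fold changes of 1.01, 2.25, 2.78 and 2.06. Bulk tissue RNA does not tell more cells of a type from more RNA per cell.

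Csf1r (chromosome 18, 61100598 to 61132149, plus strand, GRCm38) rose, and per length of transcript it was the most abundant of the 7 genes. Saline replicates 1, 2 and 3 measured 72.9, 77.3 and 80.4 CPM, and collagenase replicates 1, 2 and 3 measured 164.9, 135.9 and 122.2 CPM. The lowest collagenase library was thus above the highest saline library, and the spread was wider after collagenase (SD 21.8 against 3.80 CPM, n = 3 per group). On the log2 scale it was higher by 0.88 (standard error, SE, 0.13; 95% interval 0.59 to 1.16; edgeR adjusted p 0.013). The call ended without saline replicate 1 (edgeR adjusted p 0.0893) and without collagenase replicate 2 (edgeR adjusted p 0.0538), at log2 fold changes of 0.84 and 0.90. Hmgxb3, which overlaps Csf1r on the opposite strand, measured 33.7 ± 6.41 and 35.0 ± 3.88 CPM (SD, n = 3 per group) and did not pass (edgeR adjusted p 0.942). The library protocol names no step that marks the strand.

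Microglial genes moved with Csf1r. Of 15 listed markers of microglia, all tested, 8 rose, 0 fell and 7 did not pass, and their summed level was 313.6 to 372.7 CPM in saline and 578.8 to 786.0 CPM in collagenase libraries. Laptm5, a lysosomal membrane protein gene of leukocytes, measured 40.3 ± 11.1 and 103.9 ± 15.1 CPM (SD, n = 3 per group), and Cx3cr1, the fractalkine receptor, 33.5 ± 2.10 and 68.9 ± 12.8 CPM. Their log2 fold changes were 1.37 and 1.04. P2ry12, a purine receptor of resting microglia, had a log2 fold change of 0.17 and did not pass. Against the mean of 10 genes of homeostatic microglia, 4 of which rose themselves, the log2 level of Csf1r was 1.94, 1.99 and 1.90 after saline and 2.26, 2.07 and 2.04 after collagenase. The difference was 0.18, with a 2-sided exact permutation p of 0.10, the smallest that 3 against 3 libraries allow. Against the mean of all 15 microglial markers, which adds 5 genes such as Trem2 and Ptprc, the difference was -0.16 (exact permutation p of 0.10), so the direction of Csf1r relative to its cells turned with the reference list. The part that these genes or the number of microglia play in the rise of Csf1r was not tested.

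Blood-derived myeloid cells also carry Csf1r. Of 13 tested genes of monocytes and border macrophages 2 rose, Lyz2 and Ccr2, and 11 did not pass. Among the latter were the monocyte genes Ly6c2 and Plac8, which overlapped between groups, with log2 fold changes of 0.04 and 0.72. The summed level of the 14 listed genes was 57.5 to 62.7 CPM in saline and 239.0 to 521.2 CPM in collagenase libraries, most of the latter being Lyz2, a lysozyme gene that microglia can also express. The median log2 fold change of the 13 was 0.69, and 11 were positive. Ms4a7, F13a1 and Mrc1, genes of macrophages and border macrophages, had no overlap between groups and log2 fold changes of 3.51, 0.94 and 0.85. They missed the threshold (edgeR adjusted p of 0.123, 0.0719 and 0.108). Lyve1, Pf4, Cd163 and Cbr2, further genes of border macrophages, overlapped between groups and did not pass. Their log2 fold changes were -0.20, 0.14, 0.31 and 0.69. Vcan and Itga4, the most abundant genes of the list after Lyz2, had log2 fold changes of 0.03 and -0.22 and did not pass. The part of these cells in the rise of Csf1r was not tested. The genes whose log2 CPM followed Csf1r most closely over the 6 libraries, among 12872 compared, were Mylip, Sla and Cd53, each with a Pearson r of 0.998. Cd53, a tetraspanin of leukocytes, rose with a log2 fold change of 1.76, and Sla, an adaptor that dampens immune receptor signals, with 1.55. Mylip, a ubiquitin ligase that degrades the LDL receptor, measured 12.2 to 13.5 CPM in saline and 17.7 to 21.2 CPM in collagenase libraries and did not pass (edgeR adjusted p 0.0535). The 6 libraries share the group difference, so such likeness is a description.

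Csf1 (chromosome 3, 107741048 to 107760469, minus strand) did not pass, although its groups did not overlap. It measured 36.3, 33.9 and 37.4 CPM in saline replicates 1, 2 and 3, and 52.2, 53.7 and 39.2 CPM in collagenase replicates 1, 2 and 3. Collagenase replicate 3 lay just above the highest saline library, while the other collagenase libraries were clearly higher. Its log2 fold change was 0.43 (SE 0.13, 95% interval 0.12 to 0.74, edgeR adjusted p 0.207). Of all tested features 10.1% had every collagenase library above every saline library, and 7.5% every one below; 5 of the 7 genes were of the first kind and 0 of the second. Without replicate 3 of both groups the log2 fold change was 0.60 and Csf1 passed (edgeR adjusted p 0.0117). In that fit 3.49% of tested features were called higher, so the test called more genes in general. Over the fits that left out 1 library the log2 fold change lay between 0.35 and 0.56 and never passed (edgeR adjusted p from 0.0652 to 0.582). The genes most like Csf1 over the 6 libraries were Rasgrp3, Igdcc4 and Chrdl1 (Pearson r of 0.995, 0.984 and 0.983), none of which passed. Astrocytes and oligodendrocytes are known sources of Csf1. Of 12 astrocyte markers Gfap and Aqp4 rose and 10 did not pass, among them the abundant Slc1a2 and Aldoc. Of 12 oligodendrocyte markers, Mbp and Mobp among them, 0 passed, with a median log2 fold change of -0.13.

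Il34 (chromosome 8, 110741829 to 110805924, minus strand) did not pass. It measured 14.5, 25.3 and 10.1 CPM in saline replicates 1, 2 and 3, and 14.6, 14.0 and 14.1 CPM in collagenase replicates 1, 2 and 3. The collagenase libraries sat close together, while the saline libraries included both the highest and the lowest value of the 6. Its log2 fold change was -0.22 (SE 0.29, 95% interval -0.90 to 0.46, edgeR adjusted p 0.849). Without saline replicate 2 it was 0.21 (edgeR adjusted p 0.737), so 1 library set the direction, and without replicate 3 of both groups it was -0.46 (edgeR adjusted p 0.4). A change of either sign therefore lies inside the interval.

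The saline libraries that were high and low in Il34 also differed in genes of other brain regions. Il34 is abundant in cortical and hippocampal neurons. Of 12 cortical and hippocampal genes 8 had their highest saline level in replicate 2, and 8 their lowest saline level in replicate 3, as had all 8 choroid plexus genes in each case. Of 12 general neuronal genes the same counts were 1 and 3. Nrgn, a postsynaptic gene of forebrain neurons, measured 111.4, 195.9 and 87.5 CPM in saline replicates 1, 2 and 3. Cck and Wfs1 went the other way, with their highest saline level in replicate 3 (243.6 and 83.2 CPM), where Il34 was lowest. Neurod6, a transcription factor of cortical and hippocampal excitatory neurons, measured 23.0, 39.8 and 0.176 CPM in saline replicates 1, 2 and 3. It measured 3.65, 0.538 and 0.570 CPM in collagenase replicates 1, 2 and 3, where Il34 was close to its level in saline replicate 1. The summed level of the 12 genes was 468.0 to 598.8 CPM in saline and 303.9 to 373.5 CPM in collagenase libraries, 0 of the 12 passed, and their median log2 fold change was -0.74. At an unadjusted p under 0.05 edgeR counted 4 of them, all lower, and DESeq2 called 2. The part of this tissue in the level of Il34 was not tested. The most abundant of the 12, Cck, Nrgn and Wfs1, had log2 fold changes of -0.50, -1.44 and -0.22. Most like Il34 over the 6 libraries were Ntng2, Shroom2 and Erp29 (Pearson r of 0.995, 0.977 and 0.974), none of which passed.

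**Figure D2:**
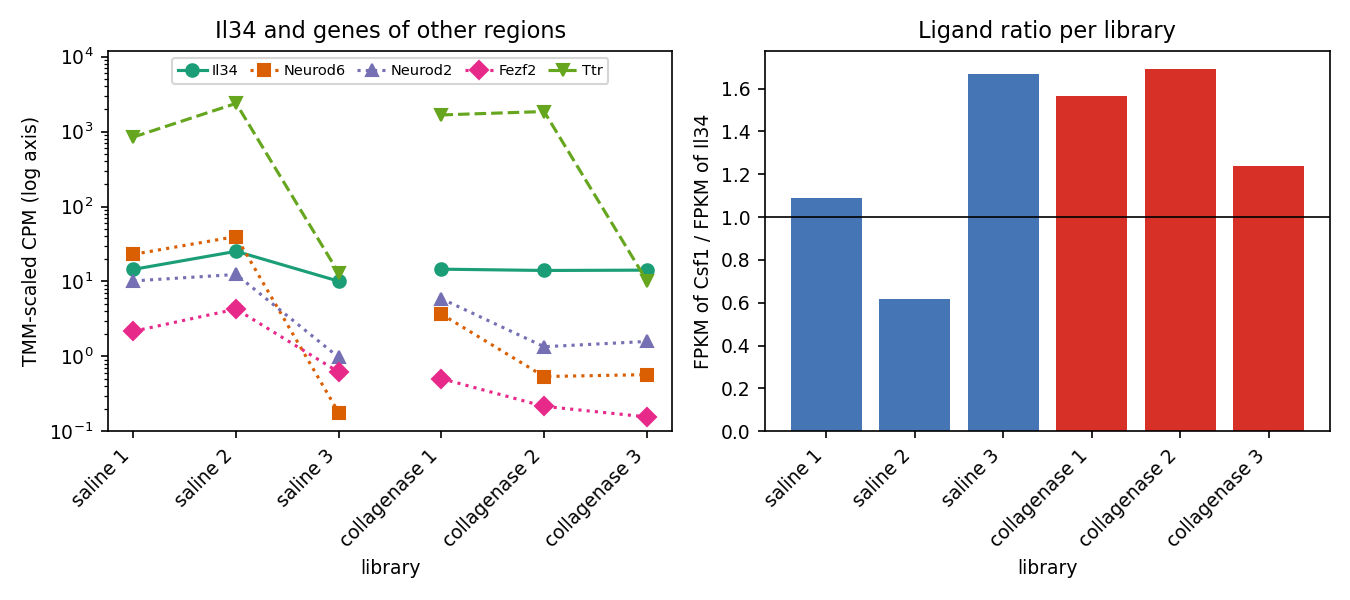
Left, level of Il34, of the cortical and hippocampal genes Neurod6, Neurod2 and Fezf2 and of the choroid plexus gene Ttr in TMM-scaled CPM (log axis) in each library. Right, ratio of Csf1 to Il34 FPKM in each library, with a line at 1; saline replicate 2 has the highest Il34 and the lowest ratio, 0.618.

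The ligand pair was compared within each library, per length of transcript, using the deposited FPKM values (fragments per kilobase of transcript, scaled to library depth). The FPKM ratio of Csf1 to Il34 was 1.09, 0.618 and 1.67 after saline and 1.57, 1.69 and 1.24 after collagenase. The groups overlapped: saline replicate 3 fell inside the range of the collagenase libraries. The mean log2 ratio differed by 0.52, with a 2-sided exact permutation p of 0.30. The FPKM of Csf1r divided by the summed FPKM of both ligands, a measure chosen after the values were seen and not tested, was 0.693 to 1.09 in saline and 1.33 to 1.61 in collagenase libraries. The receptor was thus above the sum of its ligands in every collagenase library and in 1 of 3 saline libraries.

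Csf3r (chromosome 4, 126024550 to 126044440, plus strand) rose. It measured 4.82, 5.32 and 7.51 CPM in saline replicates 1, 2 and 3, and 25.1, 22.8 and 18.4 CPM in collagenase replicates 1, 2 and 3. The lowest collagenase library was more than 2-fold above the highest saline library. It was higher by 1.91 on the log2 scale (SE 0.20, 95% interval 1.45 to 2.38, edgeR adjusted p 0.00371). The call held in all 6 fits that left out 1 library, with log2 fold changes between 1.78 and 2.12 and edgeR adjusted p-values up to 0.0323.

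Several of the listed neutrophil markers were at or near 0 beside Csf3r, and 1 listed marker rose. Of 12 neutrophil markers Elane and Camp, which encode granule proteins, had 0 counts in all libraries, and Ly6g and Mpo had 0 counts in saline and at most 0.0777 and 0.147 CPM in collagenase libraries. The summed level of the 12 genes was 1.29 to 2.01 CPM in saline and 3.41 to 6.92 CPM in collagenase libraries, below Csf3r alone in each of the 6 libraries. Only 4 of the 12 passed the filter on low counts, and Mmp8 alone of them rose, from 0 counts in saline to 0.476 ± 0.122 CPM (SD, n = 3). S100a8 and S100a9, the subunits of calprotectin and among the most abundant neutrophil transcripts, measured 0.450 ± 0.282 and 0.855 ± 0.496 CPM after collagenase (SD, n = 3) and did not pass. Mmp9, a gelatinase that other cells also make, was the most abundant of the 12 and did not pass (edgeR adjusted p 0.112). The log2 fold changes of S100a8, S100a9 and Mmp9 were 2.14, 1.92 and 1.18, so all 4 tested genes were higher on average after collagenase. Mmp8, at 0 counts in saline, could pass the filter only through the collagenase libraries, which fixed its direction in advance. S100a8 had saline counts in replicate 1 only. The shared direction of the 4 was thus partly set by the filter. Of the genes below the filter, Cxcr2 measured 0, 0 and 0.176 CPM in saline replicates 1, 2 and 3. It measured 0.420, 0.242 and 0.415 CPM in collagenase replicates 1, 2 and 3. Ltf had counts in saline replicate 3 only. Within the collagenase group S100a8, S100a9, Mmp9, Ly6g, Ngp and Retnlg were highest in replicate 3, where Csf3r was lowest. Mmp8 was lowest there, and Mpo and Cxcr2 were highest in replicate 1, where Csf3r was highest. Few counts set these orders: Mpo had 7 and 3 counts in collagenase replicates 1 and 3, and Cxcr2 20 and 16. Ly6g had 3 counts in collagenase replicate 3, Ngp 7 and Retnlg 16. The part of neutrophils in the rise of Csf3r was not tested. Csf3, the ligand of Csf3r, had 0 counts in all 6 libraries. A count of 0 allows up to 3 counts in a group, and counting limits cover counting error only, since PCR copies are not independent molecules.

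**Figure D3:**
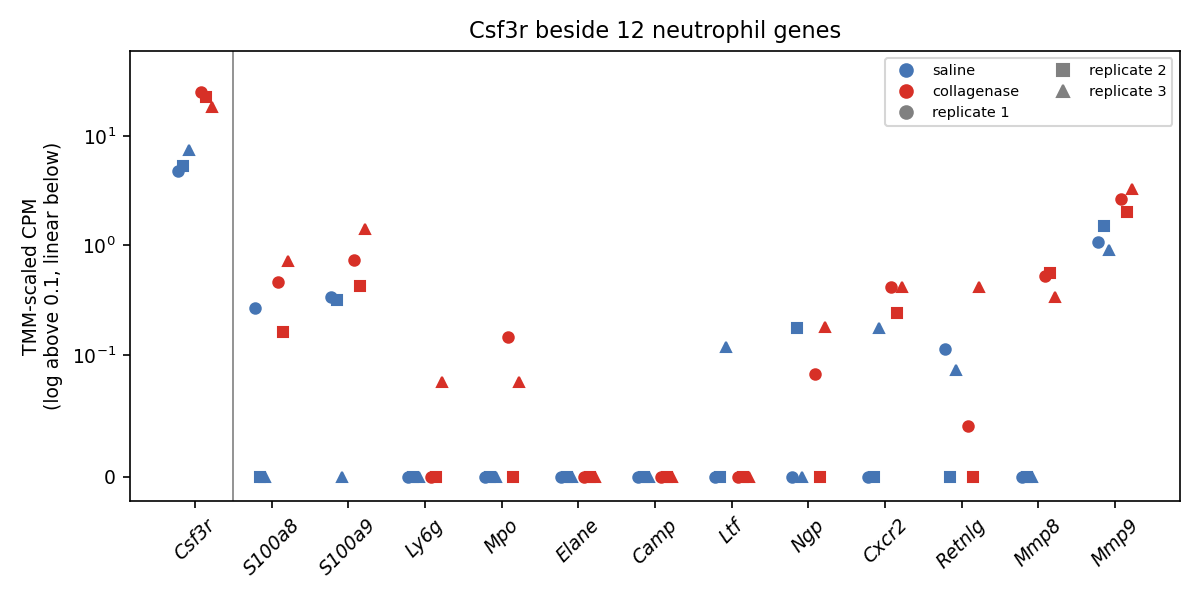
Level of Csf3r and of 12 neutrophil genes in TMM-scaled CPM in each library (log axis above 0.1, linear below; blue saline, red collagenase, symbols for replicate numbers). Csf3r lies between 4.82 and 25.1 CPM, and no neutrophil gene exceeds 3.29 CPM.

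The beta chain genes Csf2rb and Csf2rb2 lie head to head on chromosome 15 with 20031 bases between their start sites, Csf2rb on the plus strand (78325752 to 78353847) and Csf2rb2 on the minus strand (78282507 to 78305721). They are near-identical copies. Over 2628 aligned coding bases of the longest coding transcripts in GENCODE M21, 95.2% were identical. Of stretches of 75 coding bases aligned without a gap, the one that differs most is shown, with the 14 bases that differ in capitals. It spans coding bases 316 to 390 of Csf2rb and 319 to 393 of Csf2rb2. A read from here can be told apart.
Csf2rb: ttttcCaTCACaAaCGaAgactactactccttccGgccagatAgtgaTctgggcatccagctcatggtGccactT
Csf2rb2: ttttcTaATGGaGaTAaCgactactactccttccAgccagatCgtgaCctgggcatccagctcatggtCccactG
The longest run without a difference, 242 bases (coding bases 2083 to 2324 in both genes), is the longest but not the only part where a read could come from either gene.
Csf2rb and Csf2rb2, shared run: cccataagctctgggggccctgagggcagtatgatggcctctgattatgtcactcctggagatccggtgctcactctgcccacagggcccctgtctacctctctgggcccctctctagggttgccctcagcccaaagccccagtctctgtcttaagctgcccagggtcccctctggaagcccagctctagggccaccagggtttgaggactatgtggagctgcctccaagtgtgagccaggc

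How much of the pair can be confused depends on the read length, which is not given in the sources used here. Of all windows of 50 bases in the Csf2rb transcript 18.4% also occurred in Csf2rb2, and of windows of 150 bases 3.47%. The split between the copies is thus uncertain, and their sum was tested as well.

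Csf2rb, the beta chain shared by the receptors for GM-CSF, interleukin-3 and interleukin-5, showed the highest fold change of the 7 genes. It measured 1.19, 1.48 and 0.968 CPM in saline replicates 1, 2 and 3, and 10.4, 7.82 and 5.78 CPM in collagenase replicates 1, 2 and 3. The groups were far apart, and collagenase replicate 1 was the highest library, as for Csf1r and Csf3r. The rise was 2.72 on the log2 scale (SE 0.28, 95% interval 2.07 to 3.36, edgeR adjusted p 0.00325). It passed in all 6 fits that left out 1 library (log2 fold changes of 2.48 to 2.90, edgeR adjusted p up to 0.0365).

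Csf2rb2, the interleukin-3 beta chain, rose as well, from a low and uneven saline level. It measured 1.31, 1.95 and 0.675 CPM in saline replicates 1, 2 and 3, and 7.02, 6.43 and 4.43 CPM in collagenase replicates 1, 2 and 3. Here saline replicate 2 was nearly 3 times replicate 3, and within each group the libraries ranked as they did for Csf2rb. The rise was 2.18 on the log2 scale (SE 0.37, 95% interval 1.33 to 3.04, edgeR adjusted p 0.0246). It did not pass without saline replicate 1, nor without any 1 of the collagenase libraries (edgeR adjusted p up to 0.136). The 4 log2 fold changes were 2.18, 2.05, 2.12 and 2.36. Csf2rb took 43.2% to 58.9% of the counts of the pair in saline and 54.9% to 59.7% in collagenase libraries. Summed, the pair measured 2.53 ± 0.895 CPM after saline and 13.9 ± 3.60 CPM after collagenase (SD, n = 3 per group). The summed counts rose by 2.46 on the log2 scale (SE 0.30, edgeR adjusted p 0.00688).

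The promoter of Csf2rb2 is shown because the pair rose together and it holds both motifs searched for; a promoter of Csf2rb was not analysed here. The window runs from 250 bases before to 50 bases after the RefSeq start (GRCm38.p6, chr15:78305672-78305971, minus strand, 5′ to 3′). Capitals mark a match to TTCNNNGAA, the pattern bound by STAT factors, from 15 to 7 bases upstream of the start base. They also mark a match, on the opposite strand, to GAGGAAGT, the pattern of PU.1, a myeloid transcription factor, from 27 to 34 bases downstream.
Csf2rb2 promoter: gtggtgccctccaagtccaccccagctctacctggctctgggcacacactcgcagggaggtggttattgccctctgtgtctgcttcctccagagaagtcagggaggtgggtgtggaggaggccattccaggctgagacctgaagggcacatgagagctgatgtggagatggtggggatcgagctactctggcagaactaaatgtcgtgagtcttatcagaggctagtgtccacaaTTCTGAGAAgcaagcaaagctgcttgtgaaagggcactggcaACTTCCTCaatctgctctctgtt
Of 32851 promoter windows of the same length 8.3% held the STAT pattern and 3.2% the PU.1 pattern, both strands searched. The windows of Csf1, Csf2ra and Csf3r held neither, which says only that these letters are not in those windows.

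Csf2ra (chromosome 19, 61223957 to 61228429, minus strand), the alpha chain that binds GM-CSF, did not pass. It measured 13.8, 12.04 and 20.004 CPM in saline replicates 1, 2 and 3, and 17.7, 18.4 and 17.7 CPM in collagenase replicates 1, 2 and 3. The groups overlapped, since saline replicate 3 was the highest library of the 6. Its log2 fold change was 0.23 (SE 0.19, 95% interval -0.19 to 0.66, edgeR adjusted p 0.719). Without saline replicate 3 it was 0.47 (edgeR adjusted p 0.0606), and without replicate 3 of both groups 0.49 (edgeR adjusted p 0.0704). The interval of Csf2ra lies below those of Csf2rb and Csf2rb2. As a description, with no test, the FPKM of the alpha chain divided by the summed FPKM of the beta chains, a measure chosen after its values were seen, was 14.5, 9.20 and 32.9 after saline and 2.62, 3.30 and 4.55 after collagenase, so alpha chain transcripts exceeded beta chain transcripts in all 6.

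**Figure D4:**
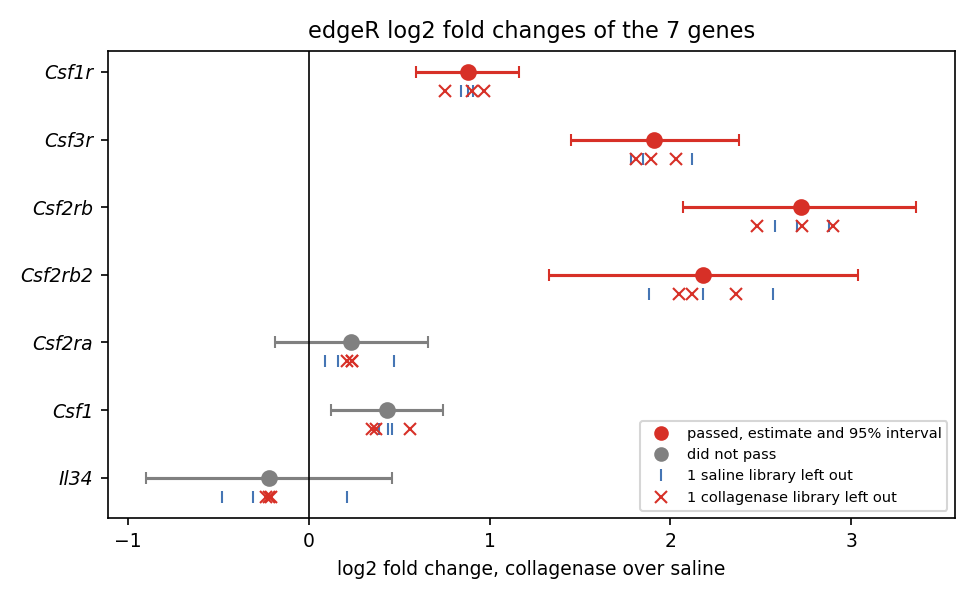
edgeR log2 fold change of each gene, collagenase over saline, with its 95% interval (red, passed; grey, did not pass) and, below it, the estimates of the 6 fits that left out 1 library. The estimates for Csf3r, Csf2rb, Csf2rb2 and Csf1r are 0.75 or more in each of these fits, and that for Il34 crosses 0 without saline replicate 2.

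Per length of transcript Csf1r was the highest of the 7 genes in both groups and the beta chains the lowest. In saline libraries Csf1r was highest at 15.0 ± 0.654 FPKM (SD, n = 3). Il34 (8.95 ± 4.61), Csf1 (8.50 ± 0.157) and Csf2ra (7.49 ± 1.57 FPKM) followed, and neighbours among these 3 overlapped in range. Csf3r was at 1.596 ± 0.382 FPKM, and Csf2rb2 and Csf2rb, whose ranges overlapped, at 0.255 ± 0.138 and 0.225 ± 0.0603 FPKM. In collagenase libraries Csf1r measured 29.5 ± 5.66, Csf1 12.1 ± 2.13, Csf2ra 9.48 ± 0.321, Il34 8.08 ± 0.526, Csf3r 6.45 ± 0.949, Csf2rb 1.65 ± 0.554 and Csf2rb2 1.23 ± 0.315 FPKM. Csf1 and Csf2ra overlapped in range there, as did the beta chains, and the other neighbours did not.

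The remaining ligands and related receptor chains gave no call. Of 14 such genes 9 had counts enough to be tested, 0 passed in edgeR, 4 had an unadjusted p under 0.05 and DESeq2 called 1, Kit. Csf2, which encodes GM-CSF, had 4 counts in saline replicate 3 and 3 counts in collagenase replicate 1, and 0 in the other libraries. Il3 had 0 counts in all libraries. Il5 had 20 counts over the saline and 8 over the collagenase libraries, and Il5ra 3 in each group. The ligands of Csf3r and of the beta chain receptors thus had at most 20 counts in a group. Il3ra, the alpha chain of the interleukin-3 receptor, measured 1.495 ± 0.168 and 2.53 ± 0.277 CPM (SD, n = 3 per group), with no overlap, a log2 fold change of 0.76 and an edgeR adjusted p of 0.197. Ptprz1 and Sdc1, which have been described as further binding partners of interleukin-34, had log2 fold changes of 0.01 and -0.22 and did not pass. Among receptor kinases of the same class as Csf1r, Kit measured 24.6 ± 9.25 and 12.3 ± 1.93 CPM (SD, n = 3 per group; edgeR adjusted p 0.121). Flt3, Pdgfra and Pdgfrb had log2 fold changes of -0.14, 0.05 and 0.34. Kitl and Flt3l, the ligand genes of Kit and Flt3, were at -0.34 and 0.39. None of these passed.

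Among 29 genes of signalling next to these receptors, all tested, 7 rose, 0 fell and 22 did not pass, with a median of 0.15 on the log2 scale. Among those that rose were Fgr, a Src family kinase of myeloid cells, Tyrobp, an adaptor that carries the activating motif read by the kinase Syk, Syk itself, Ptpn6 and Inpp5d, phosphatases that limit receptor signals, and Plcg2, a phospholipase. Fgr measured 0.217 ± 0.0489 and 3.44 ± 1.19 CPM (SD, n = 3 per group; log2 fold change 3.95), and Ptpn6 3.23 ± 0.393 and 12.8 ± 3.42 CPM (log2 fold change 1.99). The log2 fold change was 2.13 for Tyrobp, 2.05 for Syk, 1.38 for Inpp5d and 0.90 for Plcg2. Lyn and Fes, further kinases of myeloid cells, had no overlap between groups and log2 fold changes of 0.75 and 0.53, but missed the threshold (edgeR adjusted p of 0.101 and 0.303). Jak2, Stat5a and Stat5b, the kinase and transcription factors used by the beta chain receptors, had log2 fold changes of 0.02, 0.41 and 0.15 and did not pass. The count of 7 stood beside 416 calls over all features, and both moved with the library left out. It was 3 without saline replicate 1 (85 of all features) or collagenase replicate 2 (142), and 4 without collagenase replicate 1 (207). It was 5 without saline replicate 2 (348) or collagenase replicate 3 (213), and 7 without saline replicate 3 (917). Without replicate 3 of both groups it was 9 (1034).

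None of 11 tested targets and feedback genes of STAT5 and STAT3 was called by edgeR or by DESeq2 (0 in each), and 3 had an unadjusted p under 0.05 in edgeR. Cish and Socs2, feedback inhibitors induced by STAT5, measured 11.8 ± 0.373 and 18.2 ± 0.414 CPM after saline and 8.81 ± 0.424 and 13.9 ± 1.04 CPM after collagenase (SD, n = 3 per group). Their log2 fold changes were -0.42 and -0.39, with edgeR adjusted p-values of 0.189 and 0.182. Socs3, a feedback inhibitor induced by STAT3, had a log2 fold change of 0.81 (edgeR adjusted p 0.241). Over the 11 genes the median was -0.03.

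Of 11 tested transcription factors of the myeloid lineage 5 rose, 0 fell and 6 did not pass, with a median log2 fold change of 1.25. Spi1 encodes PU.1, which drives Csf1r and other myeloid receptor genes, and measured 3.51 ± 1.23 and 9.59 ± 1.28 CPM (SD, n = 3 per group; log2 fold change 1.45). Irf8, its partner in microglia, had a log2 fold change of 1.72, Cebpa of 1.28 and Ikzf1 of 1.25. Sall1, which sets microglial identity, had a log2 fold change of 0.30 and did not pass. The count of 5 moved with the library left out, as did the calls over all features, 416 in the main fit. It was 0 without saline replicate 1 (85 of all features), 3 without saline replicate 2 (348) and 6 without saline replicate 3 (917). Without collagenase replicates 1, 2 and 3 in turn it was 2 each time (207, 142 and 213). It was 7 without replicate 3 of both groups (1034).

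**Figure D5:**
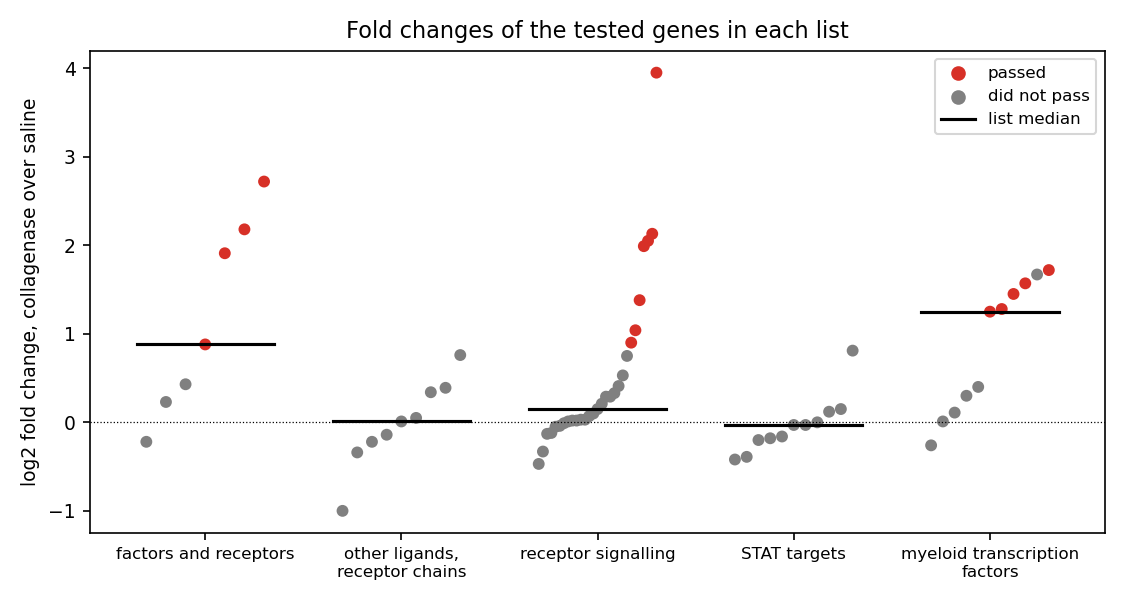
edgeR log2 fold change, collagenase over saline, of each tested gene in 5 lists (red, passed; grey, did not pass; black line, list median). The medians are 0.88 for the 7 factor and receptor genes, 0.01 for other ligands and receptor chains, 0.15 for receptor signalling, -0.03 for STAT targets and 1.25 for myeloid transcription factors.

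Other cell types, whether or not they carry these receptors, were checked by their markers. Of 9 tested dendritic cell genes Ccr7 alone rose; Fscn1, Flt3 and Siglech, the most abundant of the list, did not pass. Of 6 tested T and NK cell genes 4 rose, Cd3e, Cd3g, Cd8a and Nkg7, each with 0 counts in saline, as had Cd3d, which was not tested. These 4 could pass the filter on low counts only through the collagenase libraries, so the count of 4 among 6 was partly set by the filter. Gzmb, Gzma and Ncr1, listed but also not tested, overlapped between groups. Lck, a kinase of T cells, had a log2 fold change of 1.49 and no overlap between groups, and did not pass (edgeR adjusted p 0.109). Cd4 measured 0.608, 0.378 and 13.1 CPM in saline and 2.94, 0.565 and 0.622 CPM in collagenase replicates 1, 2 and 3, so its mean rested on saline replicate 3, and it did not pass. T cells are a known source of GM-CSF, whose gene Csf2 is given above. Of 4 tested mast cell, basophil and eosinophil genes, cells that use the interleukin-3 and interleukin-5 receptors, Siglecf rose, which microglia can also express, and Epx and Tpsb2 did not pass; Mcpt8 had 0 counts in all libraries and Prg2 in saline libraries. Of 12 neuronal genes, led in level by Snap25, Syt1 and Eno2, 0 passed, with a median log2 fold change of -0.13. Of 12 endothelial genes, led by Slc2a1, Slco1a4 and Flt1, 0 passed, with a median of 0.15. The part of these cells in the rise of the receptor genes was not tested.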

How the data were processed

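Libraries were made from poly(A) RNA with random-primed cDNA, per the labels' protocols. The submitters' processing notes name HISAT2 2.2.1, StringTie, DESeq2 and the build GRCm38, without roles or order. Each deposited table pairs a count with an FPKM value per feature, per the file headers. Counts were whole, differed in total between libraries and were tested as deposited. The sources used here do not give the read length, the strand setting or the rule for reads that match several genes. Symbols were matched by Ensembl identifier (22022 of 22036).

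Counts were filtered with filterByExpr, scaled by TMM and tested with the robust quasi-likelihood test of edgeR 4.0.16 (R 4.3.3), two-sided, with Benjamini-Hochberg adjustment over 17240 features. A gene absent from saline libraries could pass this filter through the collagenase libraries alone. CPM are TMM-scaled, with the SD over 3 libraries, and log2 CPM used a prior count of 2. Alternatives were DESeq2 1.42.0, its size factors, no filter, limma 3.58.1 on log2(FPKM + 0.1), a replicate block, a non-robust fit, and leaving out libraries. Ratios were tested by exact permutation (scipy 1.17.1). The fit was tested on simulated counts.

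All 7 genes are named, with every listed ligand and receptor chain, the genes of other pathway lists that passed, and the 3 most abundant genes of marker lists and those at 0; other names were chosen after their values were seen. Some genes that this rule takes are not reported here by name. The ratios marked as untested were too. For Csf1r, Csf1 and Il34 the 3 genes of highest Pearson correlation of log2 CPM (mean of at least 1, no predicted loci) are named. Genes and lists were chosen with earlier results of these data known. Positions are from GENCODE M21, coding sequences from its transcripts (aligned with Biopython 1.88), and the promoter from RefSeq, which matched 4 of the 7 genes.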

Additional observations from a re-analysis of the deposited data

How the results depend on the processing

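Csf3r and Csf2rb kept their direction and their call in every alternative fit. Csf1r lost its call without saline replicate 1 or collagenase replicate 2, and Csf2rb2 without saline replicate 1 or any 1 collagenase library. With 1 library left out, the log2 fold changes ranged from 0.75 to 0.97 for Csf1r, 0.35 to 0.56 for Csf1, -0.48 to 0.21 for Il34, 0.09 to 0.47 for Csf2ra, 2.48 to 2.90 for Csf2rb, 1.88 to 2.57 for Csf2rb2 and 1.78 to 2.12 for Csf3r. The count of called genes among the 7 was 2 to 4, among receptor signalling genes 3 to 7, among myeloid transcription factors 0 to 6, and among all features 85 to 917, the lowest without saline replicate 1. Il34 turned to 0.21 without saline replicate 2, and the log2 level of Csf1r against microglial genes turned from 0.18 to -0.16 with the longer reference list; these follow from the library and the genes left out or added. DESeq2 called 788 of all features against 416 in edgeR. Without replicate 3 of both groups edgeR called 1034, and Csf1 passed with a log2 fold change of 0.60; the cause was not tested. The Csf1 to Il34 log2 ratio differed by 0.14 to 0.86, and the Csf1r reference ratio by 0.11 to 0.22, with 1 library left out.

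With the replicate number as a block edgeR called 302 features in place of 416, 3 myeloid transcription factors in place of 5, and the same 4 of the 7 genes. Same-numbered libraries deviated together with correlations of 0.04, 0.11 and 0.20, so the numbers were not taken as pairs. Only replicates 2 and 3 correlated best with their own number.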
